A study of Mus musculus with 12 samples.

Results

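The exocyst is the protein complex that tethers secretory vesicles to the plasma membrane before they fuse with it. Its members were taken as the genes with the symbols Exoc1, Exoc2, Exoc3, Exoc4, Exoc5, Exoc6, Exoc6b, Exoc7 and Exoc8 in GENCODE M21, and all 9 were found among the 26921 genes of the deposited count table. RNA-seq was performed on the left ventricle of 16-week-old mice, with 6 WT libraries and 6 cmGch1 KO libraries, each from a different animal as the experimental unit is defined in the study. Mice of both groups were homozygous for a floxed allele of Gch1 (Gch1 flox/flox), the gene of the enzyme that starts tetrahydrobiopterin synthesis, and cmGch1 KO mice carried in addition, in the heterozygous state, Cre recombinase driven in cardiomyocytes by the α-MHC promoter. WT mice were littermates without Cre, and no library of mice with Cre and intact Gch1 was analysed here, so that Cre and the loss of Gch1 cannot be told apart.

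The complex is built from a pair of modules. Exoc1, Exoc2, Exoc3 and Exoc4 (Sec3, Sec5, Sec6 and Sec8 in yeast) form the first module, and Exoc5, Exoc6 or its paralog Exoc6b, Exoc7 and Exoc8 (Sec10, Sec15, Exo70 and Exo84) form the second. Exoc2 and Exoc8 are the subunits that bind the active Ral GTPases, Exoc6 and Exoc6b bind Rab11 on the vesicle, and Exoc1 and Exoc7 bind phosphoinositides of the plasma membrane. In muscle and fat cells the exocyst is best known for the delivery of the glucose transporter GLUT4 to the cell surface.

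Totals lay between 19921398 and 37917806 counts per library. Gch1 itself had a mean of 10.7 ± 0.974 cpm in the WT group and of 5.48 ± 0.855 cpm in the cmGch1 KO group (SD, n = 6 each), with the 2 ranges apart. Here cpm is the counts of a gene relative to the size of its library (CPM), scaled by edgeR's TMM factors. In 2 cmGch1 KO libraries, replicates 2 and 3, Xist was at 86.7 and 99.1 cpm, whereas it was at most 0.234 cpm in the other 10 libraries. The same 2 libraries had 14.9% and 16.1% of their counts on mitochondrial genes, against 18.3% to 22.9% in the others. Exoc2, Exoc4 and the counts of calls are therefore also given without these 2 libraries. The sample labels give no sex, and the study states that mice were matched for sex and that both sexes were used. By Xist, a sex-linked transcript, the genotypes were not balanced in these libraries. The summed level of the 4 left ventricular markers (Myl2, Myl3, Irx4 and Hand1) was 10509 to 14901 cpm in WT libraries and 8941 to 15101 cpm in those of cmGch1 KO, and that of the 5 atrial markers (Myl7, Myl4, Sln, Nppa and Bmp10) was 74.3 to 547 cpm and 246 to 742 cpm. Of the atrial markers Nppa, which encodes atrial natriuretic peptide and is also made in stressed ventricles, was called higher in cmGch1 KO (152 ± 64.5 and 439 ± 166 cpm, log2 fold change 1.53, edgeR, adjusted p = 0.024). Myl7, Myl4 and Sln had log2 fold changes of 0.11, 0.17 and -0.36 and were not called.

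Exoc2 (ENSMUSG00000021357) is encoded on chromosome 13 between 30813919 and 30974093 in GRCm38, on the minus strand. Exoc4 (ENSMUSG00000029763) is encoded on chromosome 6 between 33249085 and 33973979, on the plus strand, and with 724895 bases it has the longest span of the 9 genes. Their promoters are shown because these are the 2 subunits whose genotypes did not overlap. Each sequence runs from 250 bases before to 50 bases after the start in RefSeq on GRCm38.p6, 5′ to 3′ on the strand of the gene, at chr13:30973998-30974297 for Exoc2 and at chr6:33248878-33249177 for Exoc4. Capitals mark the letters of the motifs that were found.
Exoc2: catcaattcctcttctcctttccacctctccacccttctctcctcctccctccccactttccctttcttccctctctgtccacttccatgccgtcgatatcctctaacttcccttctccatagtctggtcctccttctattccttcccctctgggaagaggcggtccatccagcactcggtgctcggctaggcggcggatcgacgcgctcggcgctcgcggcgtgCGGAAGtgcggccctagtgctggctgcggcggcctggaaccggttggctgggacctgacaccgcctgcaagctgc
Exoc4: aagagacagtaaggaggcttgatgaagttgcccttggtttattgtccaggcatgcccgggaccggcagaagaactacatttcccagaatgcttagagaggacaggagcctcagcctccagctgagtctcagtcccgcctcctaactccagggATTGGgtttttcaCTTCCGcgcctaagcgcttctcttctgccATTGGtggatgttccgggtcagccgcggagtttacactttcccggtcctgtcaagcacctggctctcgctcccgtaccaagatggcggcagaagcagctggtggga

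The search covered 6 motifs on both strands in the promoters of all 9 subunits. They were the GC box (GGGCGG), the CCAAT box (CCAAT), the TATA box (TATAAA), an E-box (CACGTG), an ETS core (CGGAAG) and a CRE half-site (TGACGT). The promoter of Exoc2 held 1 ETS core, at bases 226 to 231 of the sequence, and none of the other motifs. The promoter of Exoc4 held 1 ETS core and 2 CCAAT boxes, each read on the opposite strand. An ETS core was found for 7 of the 9 subunits, and in 17% of 32544 different promoters of the same length. A GC box was found for 6 subunits and in 35.9% of all promoters, and a CCAAT box for 2 subunits, Exoc1 and Exoc4, and in 37.4% of all promoters. No TATA box was found for a subunit, and 13.6% of all promoters held these letters. The count of CpG dinucleotides was 21 for Exoc2 and 13 for Exoc4, where the median of all promoters was 7. At the first listed start of each of the 9 subunits it was 13 to 39. The shares of all promoters were not matched for CpG. Subunits with more than 1 start were counted over all of their windows, so no enrichment is read from these counts. RefSeq lists for Exoc2 a second start within the gene, at chr13:30950249-30950548, whose window held 0 CpG and none of the motifs. The counts are per gene, so that the use of either start was not analysed here.

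The first question was which subunits differed between the genotypes. The complex was selected on the genotype difference of its cpm values, which was known from an earlier analysis of the same libraries, so that differences between genotypes are given as a description with no p-value, and nothing is read from them about the complex as a whole. Exoc2 was lower and Exoc4 was higher in cmGch1 KO hearts, and the other 7 subunits were not called. All 9 subunits passed the filter on low values, a cpm over 3 in at least 6 libraries. At an FDR under 0.05 over the 11225 genes tested (quasi-likelihood test of edgeR, Benjamini-Hochberg adjustment), 2 of the 9 were called, where 1.12% of all tested genes were. Of these calls 1 was lower in cmGch1 KO, as were 0.445% of all tested genes, and 1 was higher, as were 0.677%. The genotypes did not overlap for the same 2 subunits and for 1.87% of all tested genes, with the cmGch1 KO group below in 0.802% and above in 1.07%. The median log2 fold change of the 9 subunits was 0.10, and that of all tested genes was -0.01.

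Exoc2, the Ral-binding subunit of the first module, was at 21.3, 24, 20.6, 19.1, 22.6 and 21.4 cpm in WT replicates 1 to 6. In cmGch1 KO replicates 1 to 6 it was at 14.6, 14.4, 12.2, 14, 13.7 and 14.1 cpm. All cmGch1 KO values lay below the lowest WT value, and the gap between the groups, from 14.6 to 19.1 cpm, was wider than the range of the cmGch1 KO libraries. The mean was 21.5 ± 1.67 cpm in the WT group and 13.9 ± 0.865 cpm in the cmGch1 KO group (SD, n = 6 each). This is 0.644 of the WT level, or -0.63 as a log2 fold change with a standard error of 0.07. Each library held between 284 and 827 counts of Exoc2. By the size of the log2 fold change Exoc2 ranked 112 among the 11225 genes. Leaving out 1 library at a time gave log2 fold changes from -0.67 to -0.60, and without the 2 libraries with high Xist it was -0.61. Exoc2 was called in all 23 alternative fits.

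Exoc4, a core subunit of the same module, moved the other way. It was at 49.3, 55.3, 49.2, 51.3, 48.1 and 50.9 cpm in WT replicates 1 to 6. In cmGch1 KO replicates 1 to 6 it was at 58, 61.1, 67, 67.8, 67.7 and 65.6 cpm. All cmGch1 KO values lay above the highest WT value, with the nearest values at 55.3 and 58 cpm. The mean was 50.7 ± 2.54 cpm in the WT group and 64.5 ± 4.05 cpm in the cmGch1 KO group (SD, n = 6 each). This is 1.27 times the WT level, or 0.35 as a log2 fold change with a standard error of 0.06. Each library held between 1115 and 2377 counts of Exoc4. Leaving out 1 library at a time gave log2 fold changes from 0.33 to 0.38. Exoc4 was called in 22 of the 23 alternative fits. Without the 2 libraries with high Xist the log2 fold change stayed at 0.35, and Exoc4 was not called.

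**Figure D1:**
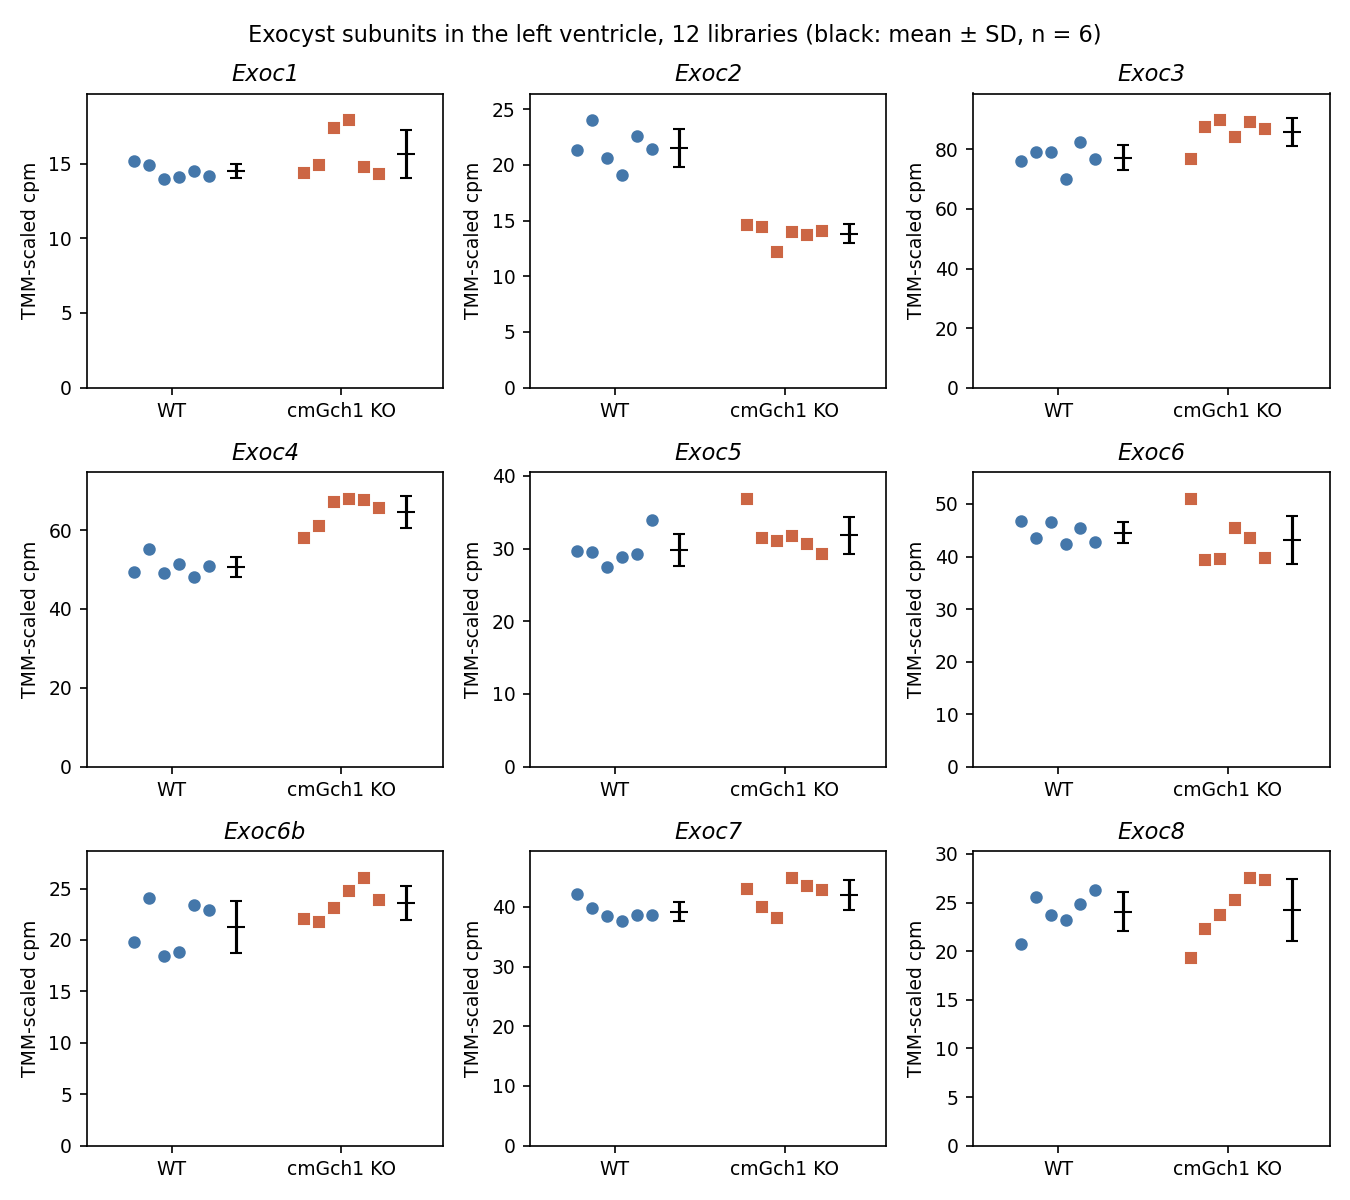
Level of each exocyst subunit in TMM-scaled cpm (vertical axes, from 0) in the 6 WT libraries (circles) and the 6 cmGch1 KO libraries (squares), with the mean and SD of each group in black. For Exoc2 all squares lie at or below 14.6 cpm and all circles at or above 19.1 cpm, for Exoc4 all squares lie at or above 58 cpm and all circles at or below 55.3 cpm, and for the other 7 subunits the groups overlap.

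Since Exoc2 and Exoc4 sit in the same module, their ratio was taken within each library, where the scaling between libraries cancels. The cpm of Exoc4 over that of Exoc2 lay between 2.13 and 2.68 in WT libraries, with a mean of 2.37 ± 0.182 (SD, n = 6). In cmGch1 KO libraries it lay between 3.96 and 5.49, with a mean of 4.68 ± 0.54 (SD, n = 6). The groups had to separate in this ratio, since Exoc2 and Exoc4 were taken for ranges that were apart in opposite directions, so the ratio adds a size and no support. These ratios are of cpm and not per length, so that they compare libraries and not the amounts of the transcripts.

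**Figure D2:**
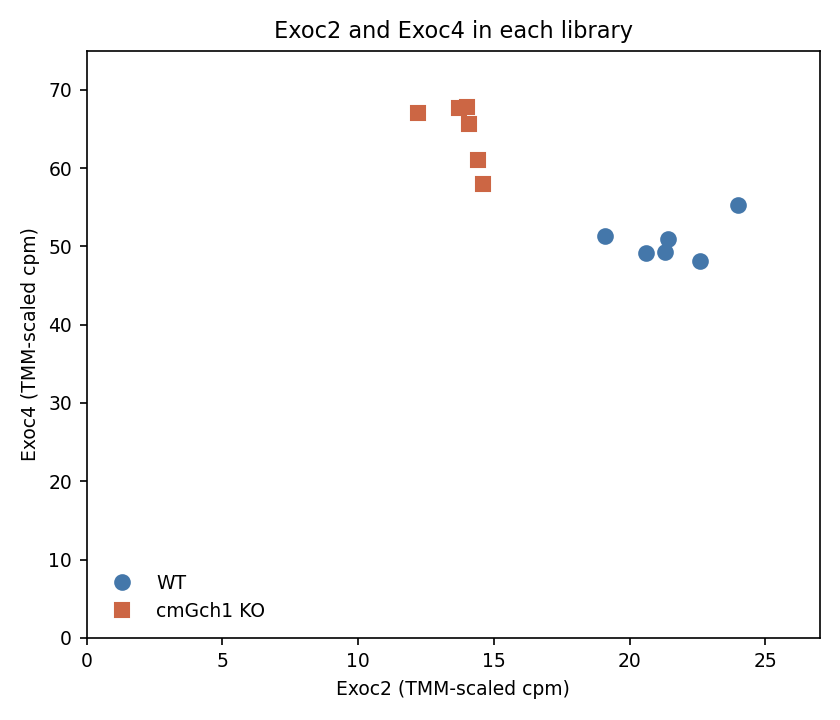
Exoc2 (horizontal axis) against Exoc4 (vertical axis), both in TMM-scaled cpm from 0, with 1 point per library, circles for WT and squares for cmGch1 KO. The 6 squares lie above and to the left of the 6 circles, with Exoc4 over Exoc2 at 3.96 or more in the squares and at 2.68 or less in the circles.

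In the first module, Exoc3, a core subunit that lies on chromosome 13 like Exoc2, was at 70.1 to 82.4 cpm in WT libraries, with a median of 78 cpm. In cmGch1 KO libraries it was at 76.9 to 89.8 cpm, with a median of 87.2 cpm. Of the cmGch1 KO libraries 1 lay inside the WT range, and the other 5 lay above it. With a log2 fold change of 0.15 and a standard error of 0.06, Exoc3 was not called. Exoc1, which binds membrane phosphoinositides, was at 14 to 15.2 cpm in WT libraries and at 14.3 to 17.9 cpm in those of cmGch1 KO. Its log2 fold change was 0.11 (standard error 0.08), and 4 of the 6 cmGch1 KO libraries lay inside the WT range.

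In the second module no subunit was called. Exoc6b and Exoc6 are alternative forms of the subunit that meets Rab11 on the vesicle. Exoc6b was at 18.4 to 24.1 cpm in WT libraries and 21.7 to 26 cpm in those of cmGch1 KO, a log2 fold change of 0.15 (standard error 0.09). Exoc6 was at 42.4 to 46.7 cpm in WT libraries and 39.3 to 50.9 cpm in those of cmGch1 KO, a log2 fold change of -0.05 (standard error 0.07), whose sign turned to 0.02 with scaling by library size alone. The cpm of Exoc6b over that of Exoc6 was 0.394 to 0.555 in WT and 0.433 to 0.603 in cmGch1 KO libraries, so the balance of the paralogs overlapped between genotypes.

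Exoc7, the other subunit that binds membrane phosphoinositides, was at 37.7 to 42.1 cpm in WT libraries and 38.2 to 44.8 cpm in those of cmGch1 KO (log2 fold change 0.10, standard error 0.06). Exoc8, which like Exoc2 binds active Ral, was at 20.7 to 26.3 cpm in WT libraries and 19.3 to 27.5 cpm in those of cmGch1 KO. Its log2 fold change was 0.01 (standard error 0.09), and the cmGch1 KO libraries reached both below and above the WT range. The 2 Ral-binding subunits thus had log2 fold changes of -0.63 and 0.01, a difference between them that was not tested. Exoc5, a core subunit of the second module, was at 27.5 to 34 cpm in WT libraries and 29.3 to 36.8 cpm in those of cmGch1 KO (log2 fold change 0.09, standard error 0.07), with 5 of the 6 cmGch1 KO libraries inside the WT range.

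Over the 7 subunits that were not called, log2 fold changes lay between -0.05 and 0.15. A log2 fold change over 0 was found for 7 of the 9 subunits, where 46.7% of all tested genes were over 0. With scaling by library size alone 8 subunits were over 0. The median of all tested genes was then 0.07 rather than -0.01, and their share over 0 was not taken. The summed cpm of all 9 subunits was 306 to 336 in WT and 333 to 357 in cmGch1 KO libraries, ranges that overlap. Exoc2 made up 6.65 ± 0.31% of the sum of all 9 in WT and 4.03 ± 0.306% in cmGch1 KO libraries (SD, n = 6 each). The sum of the 8 subunits without Exoc2 was 287 to 312 cpm in WT and 318 to 343 cpm in cmGch1 KO libraries, ranges that were apart. It includes Exoc4, whose own ranges were apart.

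**Figure D3:**
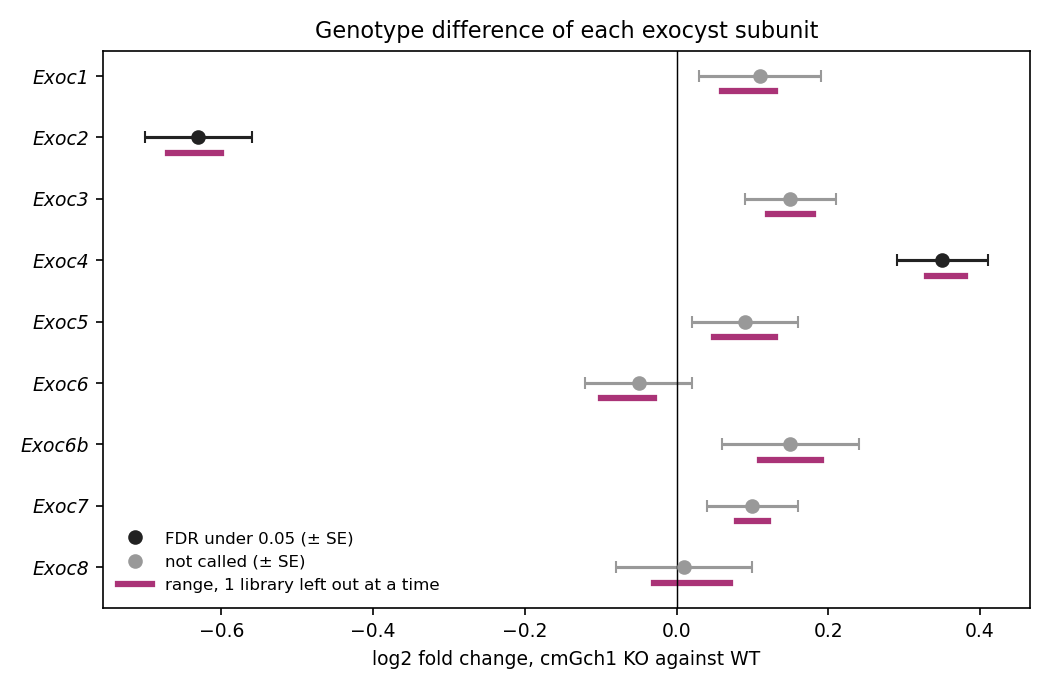
Log2 fold change between the genotypes (horizontal axis, over 0 where higher in cmGch1 KO) for each subunit, with its standard error, in black where the FDR was under 0.05 and in grey otherwise. The bar below each point spans the values with 1 library left out at a time, from -0.67 to -0.60 for Exoc2, from 0.33 to 0.38 for Exoc4 and within -0.10 to 0.19 for the other 7.

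Reads of the subunits could in principle be shared with other genes. No stretch of 50 bases in the annotated transcripts of Exoc2, Exoc3, Exoc6 or Exoc8 occurred in a transcript of another gene, so the paralogs Exoc6 and Exoc6b shared none. For Exoc4 the share of such stretches was 0.0715%. It was largest for Exoc7, at 5.38%, and for Exoc5, at 2.8%. Exoc7 overlaps the noncoding gene Gm26730 on the opposite strand, which had 0 to 4 counts per library, and Exoc5 overlaps Ap5m1 on the opposite strand, which had 226 to 463 counts. Libraries were made with strand marked, but the strand setting of the counting is not given in the sources used here, so that values of Exoc5 and Exoc7 are uncertain to that extent. Hus1b, which lies within Exoc2 on the same strand and shares no exon bases with it, had 0 to 4 counts per library.

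The neighbours of Exoc2 on chromosome 13 were not called. The nearest tested genes on either side were Dusp22, a phosphatase gene 102688 bases away at lower coordinates, with a log2 fold change of -0.12 (standard error 0.10), and Foxc1, a transcription factor gene 832540 bases away, at 0.08 (standard error 0.17). Of the 7 tested genes within 1 Mb of Exoc2 none was called, and their log2 fold changes lay between -0.13 and 0.08. Around Exoc4, 9 genes were tested within 1 Mb, of which none was called, with log2 fold changes from -0.15 to 0.24. These windows were chosen after the values were seen. Spr, the sepiapterin reductase of tetrahydrobiopterin synthesis, is the nearest tested gene on the higher-coordinate side of Exoc6b, 60663 bases away, and was named after its value was seen. The log2 fold change was -0.03 (standard error 0.10).

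Left ventricular tissue holds several cell types, and in bulk samples fewer cells of a type and less RNA per cell cannot be told apart. The summed level of 8 cardiomyocyte markers was 68692 to 73054 cpm in WT libraries and 62028 to 65592 cpm in those of cmGch1 KO, so the groups did not overlap, although 0 of the 8 genes were called and 7 had a log2 fold change under 0. Relative to this sum, Exoc2 was at 0.262 to 0.343 cpm per 1000 cpm of cardiomyocyte markers in WT and at 0.195 to 0.233 in cmGch1 KO libraries, and Exoc4 was at 0.687 to 0.79 and at 0.9 to 1.07. The groups did not overlap on this scale, which was chosen after the values were seen. For Exoc4 they had to separate, since its cpm was higher and the marker sum lower in every cmGch1 KO library than in any WT library. Exoc2 was itself taken for ranges that were apart, so this scale adds a size and no support. The 7 macrophage markers summed to 156 to 204 cpm in WT libraries and 200 to 250 cpm in those of cmGch1 KO, with 0 called and 7 over 0. Their median log2 fold change was 0.30, with unadjusted p (edgeR) from 0.00783 for Adgre1 to 0.0482 for C1qa. The 7 fibroblast markers summed to 796 to 1063 cpm and 898 to 1109 cpm, with 0 called, 7 over 0 and a median of 0.12. The 7 smooth muscle and pericyte markers summed to 900 to 1015 cpm and 918 to 1065 cpm, with 4 under 0, 3 over 0 and a median of -0.06. Of these, 1 was called, Acta2, the smooth muscle actin (126 ± 14.2 and 199 ± 31.9 cpm, log2 fold change 0.66, edgeR, adjusted p = 0.00672), with the groups apart. Myh11 and Tagln had log2 fold changes of -0.24 and -0.40 and were not called. The 5 erythroid markers summed to 391 to 1147 cpm and 429 to 921 cpm, with 0 called, 5 under 0 and a median of -0.39. The 7 endothelial markers summed to 729 to 903 cpm and 801 to 936 cpm, with 0 called. No marker of these lists was at 0 in every library, and the part of these cell types in the values of Exoc2 and Exoc4 was not tested.

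The next question was how the subunits rank within a heart, which the choice of the genes did not use. Levels were taken as cpm per kilobase of annotated exon. Exoc3 and Exoc6 had the highest levels, with means over the 12 libraries of 13.6 ± 1.03 and 12.4 ± 0.971 cpm per kb (SD). Exoc7 followed at 9.3 ± 0.565, Exoc8 at 5.25 ± 0.549, Exoc4 at 4.56 ± 0.627 and Exoc2 at 2.54 ± 0.602 cpm per kb. Exoc5 was at 1.71 ± 0.139, Exoc6b at 1.48 ± 0.157 and Exoc1 at 1.25 ± 0.105 cpm per kb.

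Neighbours in this order, and the paralogs Exoc6 and Exoc6b, were compared within libraries by an exact paired permutation test, two-sided, with Benjamini-Hochberg adjustment over the 9 pairs. The neighbour pairs and their direction came from the means of the same 12 libraries, so their p-values are no independent support for the order. Pairs with Exoc2 or Exoc4 also pool genotypes that differ. The mean log2 ratio of Exoc4 over Exoc2 was 0.38 in WT and 1.36 in cmGch1 KO libraries. All 9 pairs passed at 0.05 over the 12 libraries, with the adjusted p largest for Exoc3 over Exoc6 (mean log2 ratio 0.14 ± 0.19, SD, higher in 9 of 12 libraries, exact permutation p = 0.0356, adjusted p = 0.0356). By genotype, the mean log2 ratio of Exoc3 over Exoc6 was 0.03 in WT, with Exoc3 higher in 4 of 6 libraries. It was 0.24 in cmGch1 KO, with Exoc3 higher in 5 of 6 libraries. Without any of cmGch1 KO replicates 2 to 6 the adjusted p of this pair was 0.0566 to 0.0713 (exact permutation test). Exoc8 was above Exoc4 in 6 of 6 WT libraries (mean log2 ratio 0.38) and in 4 of 6 cmGch1 KO libraries (mean log2 ratio 0.04). Exoc2 was above Exoc5 in all 12 libraries, by a mean log2 ratio of 0.90 in WT and of 0.17 in cmGch1 KO libraries. Both orders turn with the length used: over all libraries Exoc8 over Exoc4 was -1.18 with the longest transcript and -0.80 with the coding length, and Exoc2 over Exoc5 was -1.22 with the coding length.

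Of the paralogs, Exoc6 was above Exoc6b in 12 of 12 libraries, with a mean log2 ratio of 3.07 ± 0.21 (SD), or 8.37 times, per length of annotated exon (exact permutation p = 4.88e-04, the smallest that 12 libraries allow, adjusted p = 7.32e-04). The order depends on the length used, because the annotated exons of some subunits sum to far more than their longest transcript, 12640 against 4824 bases for Exoc4 and 15133 against 5439 bases for Exoc6b. With the length of the longest transcript Exoc4 moved to rank 3, at 11.9 ± 1.64 cpm per kb, and Exoc2 to rank 7, at 4.04 ± 0.958 cpm per kb. Exoc3 ranked first and Exoc6 above Exoc6b with each of the 3 lengths tried, but the mean log2 ratio of Exoc6 over Exoc6b was 1.59 with the longest transcript and 0.98 with the coding length.

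**Figure D4:**
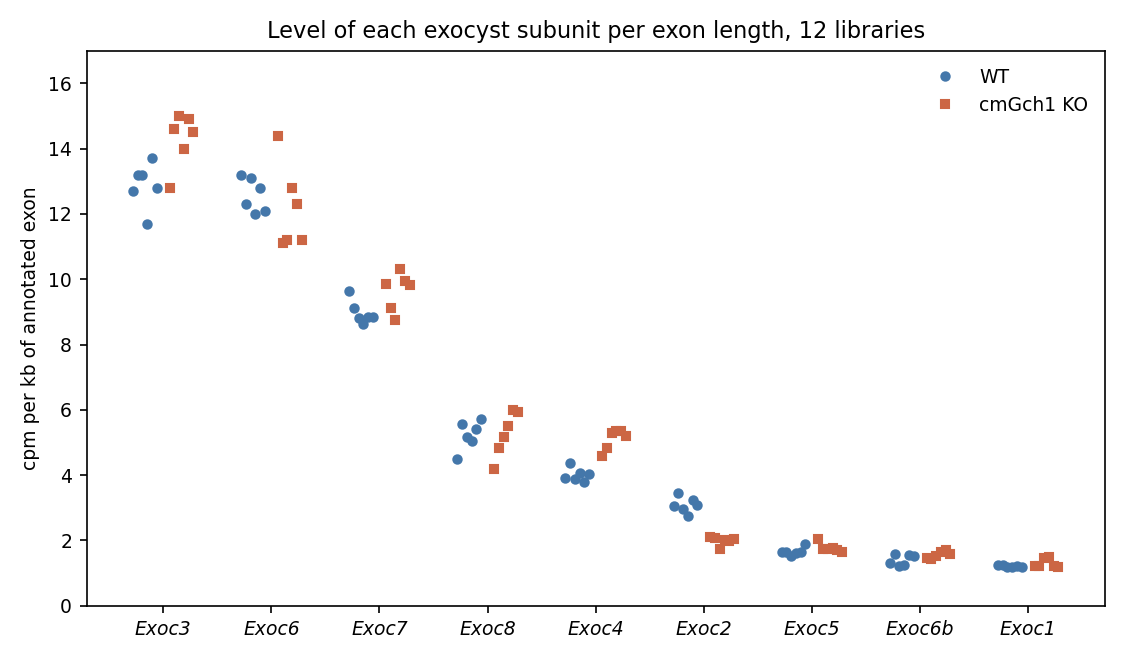
Level of each subunit in cpm per kb of annotated exon (vertical axis, from 0), in order of the mean over all libraries, with 1 point per library, circles for WT and squares for cmGch1 KO. Exoc3 and Exoc6 lie highest, at means of 13.6 and 12.4 cpm per kb, Exoc1 lowest at 1.25, and Exoc2 falls from a mean of 3.09 in WT to 1.99 in cmGch1 KO, close to Exoc5 at 1.77.

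The spread between libraries of 1 genotype was also not used to choose the genes. Exoc2 was compared with each of the other 8 subunits on log2 cpm within WT and within cmGch1 KO, 16 relations in all. None of the 16 had an adjusted p under 0.05, and 1 had an unadjusted p under 0.05. This was Exoc6b in WT (n = 6), with Pearson's r = 0.86 (exact permutation p = 0.0111, adjusted p = 0.178) and a Spearman coefficient of 0.94 (exact permutation p = 0.0167, adjusted p = 0.267). Without the 2 libraries farthest from the median of Exoc2, r was 0.87. In cmGch1 KO libraries r between Exoc2 and Exoc6b was -0.21 (n = 6, exact permutation p = 0.719, adjusted p = 0.767), or -0.98 without the 2 libraries farthest from the median, and the Spearman coefficient was -0.60 (exact permutation p = 0.242, adjusted p = 0.474), and the difference from WT was not tested. Between Exoc2 and Exoc4 r was 0.36 in WT (n = 6, exact permutation p = 0.497, adjusted p = 0.663) and -0.61 in cmGch1 KO libraries (n = 6, exact permutation p = 0.193, adjusted p = 0.546), with Spearman coefficients of 0.09 (exact permutation p = 0.919, adjusted p = 0.919) and -0.77 (exact permutation p = 0.103, adjusted p = 0.474). Without the 2 farthest libraries r was -0.46 in WT and -0.92 in cmGch1 KO. Each r without the 2 farthest libraries rests on the few that are left of 6, too few to show a relation, and was not tested.

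Over all 36 pairs of subunits the median r, given as a description, was 0.26 within WT and 0.11 within cmGch1 KO libraries. With the mean of each genotype subtracted, the genes most like Exoc2 over the 12 libraries were Vps26b, a retromer subunit (r = 0.91), Txnrd3, a thioredoxin reductase (r = 0.90), the noncoding 9430091E24Rik (r = 0.87), Klhl15 (r = 0.86) and Ppm1d, a phosphatase (r = 0.85). The lowest r was that of Ring1 (-0.85), a Polycomb protein. These are extremes of 11224 correlations. None of these 6 genes was called between the genotypes, and their log2 fold changes lay between -0.37 for 9430091E24Rik and 0.03 for Txnrd3.

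The exocyst was then set beside the Ral GTPases and their regulators, the fusion machinery it serves and the other tethering complexes, as 9 lists of 78 genes, of which 75 were tested. At an FDR under 0.05, 1 of the 75 was called, where 1.12% of all tested genes were, and 6 had an unadjusted p under 0.05. The call is near that share, so nothing is read from it about the lists. Since the lists were chosen with earlier results of these data known, p-values of their genes are given as a description. The called gene was Ralgps2, a guanine nucleotide exchange factor that activates Ral. Ralgps2 was at 9.64, 10.9, 10.4, 9.78, 11.6 and 10.6 cpm in WT replicates 1 to 6 and at 14.4, 13.8, 15.4, 15.2, 13.6 and 12.9 cpm in cmGch1 KO replicates 1 to 6. All cmGch1 KO values lay above the highest WT value. Ralgps2 had a log2 fold change of 0.44 with a standard error of 0.07 (edgeR, adjusted p = 0.0094), and without the 2 libraries with high Xist it was 0.42 (adjusted p = 0.0648).

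Of the 11 Ral GTPases and regulators, 9 had a log2 fold change over 0, with a median of 0.08. The GTPases themselves were not called, with Rala at 0.10 (standard error 0.07) and Ralb at 0.06 (standard error 0.09). The lowest of the list was Ralgapa2, a catalytic subunit of the complex that turns Ral off, at -0.39 with a standard error of 0.12 (edgeR, adjusted p = 0.162), named here after its value was seen. Its mean level was 84.3 ± 13.5 cpm in the WT group and 64.1 ± 9.27 cpm in the cmGch1 KO group (SD, n = 6 each), and the groups overlapped.

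The 15 tested plasma membrane SNARE genes had a median of 0.03, with Nsf, the ATPase that takes SNARE complexes apart, at 0.16 with a standard error of 0.07 (edgeR, adjusted p = 0.346). The 7 genes of GLUT4 vesicles had a median of -0.02, with Tbc1d1, a Rab GTPase-activating protein, at 0.19 (standard error 0.10). Of the Exoc3-related proteins Exoc3l and Tnfaip2 were tested, and Tnfaip2 was at 0.19 (standard error 0.13). No gene of these 3 lists was called.

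Among the genes of the 5 other tethering lists, 40 were tested and 0 were called (edgeR's quasi-likelihood test), with 2 at an unadjusted p under 0.05. DESeq2's Wald test called 0 of them. Their log2 fold changes lay between -0.19 for Trappc9 and 0.28 for Vps33b, with a median of -0.03, and the genotypes overlapped for each of the 40. Over all tested genes 1.12% were called and 1.87% did not overlap, so that fewer than 1 of 40 genes would be reached at either share. The COG complex of the Golgi had a median of -0.06 over 8 genes, with Cog3 at -0.09 (standard error 0.06). The GARP and EARP complexes, which receive vesicles from endosomes, had a median of 0.05 over 5 genes, with Vps51 at 0.23 (standard error 0.09). The NRZ complex of the endoplasmic reticulum had a median of 0.01 over 3 genes, with Rint1 at 0.10 (standard error 0.08). The HOPS and CORVET list of the lysosome and endosome, which also held Vps33b and Vipas39, had a median of -0.04 over 10 genes. The TRAPP complexes had a median of -0.03 over 14 genes. The medians of the COG, HOPS and CORVET, and TRAPP lists were at 0.02, 0.03 and 0.04 with scaling by library size alone. That of all tested genes was 0.07 with this scaling.

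**Figure D5:**
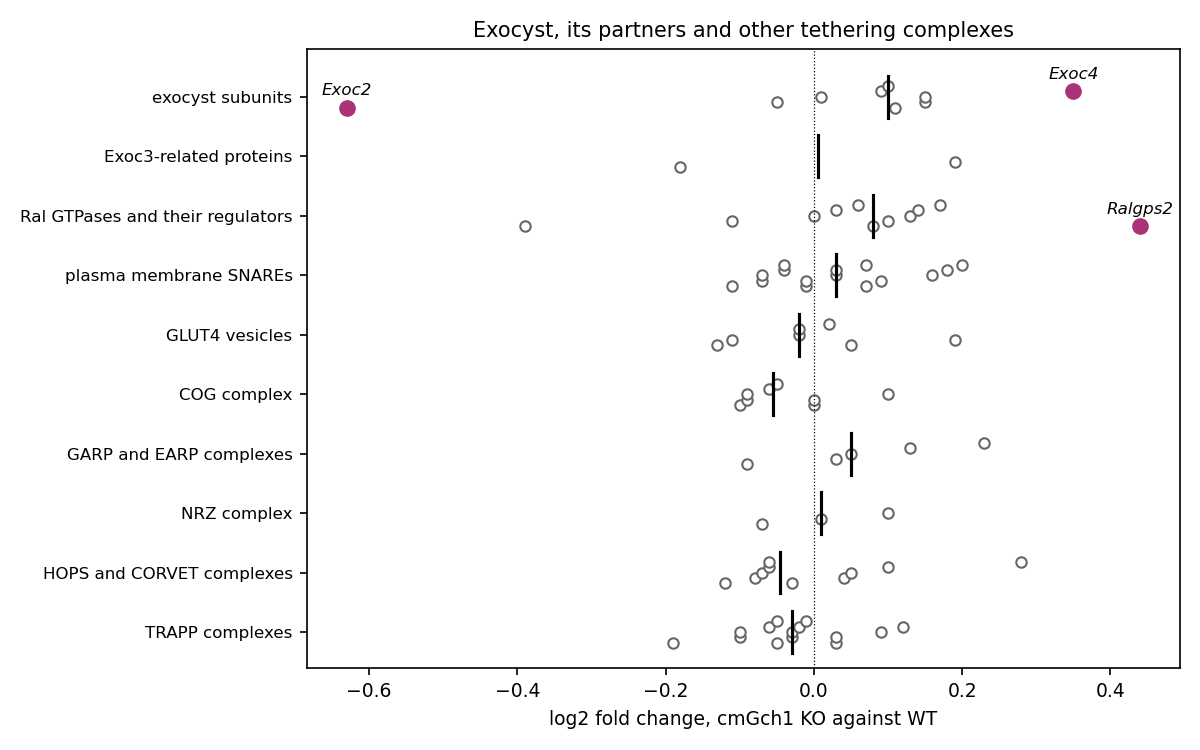
Log2 fold change between the genotypes (horizontal axis, over 0 where higher in cmGch1 KO) for each tested gene of the exocyst and of the 9 other lists (rows), with called genes (FDR under 0.05) filled and named and the median of each list as a vertical bar. Exoc2 at -0.63, Exoc4 at 0.35 and Ralgps2 at 0.44 are the filled points, and all 40 genes of the other tethering lists lie between -0.19 and 0.28.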

How the data were processed

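RNA was extracted from the left ventricle of 12 mice and sequenced as paired-end, strand-marked libraries. Reads were aligned with HISAT2 to GRCm38, per the submitters' processing notes, which also name SAMtools, and counted with featureCounts. The deposited files hold raw counts per gene and a table of normalized values on a log2 scale, made by the authors with a tool not given in the sources used here. Of 26921 gene IDs, 98.7% matched GENCODE M21.

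Counts were tested with edgeR 4.0.16 (R 4.3.3), TMM scaling, a cpm over 3 in at least 6 libraries, the quasi-likelihood test and Benjamini-Hochberg adjustment at 0.05. All 12 libraries and no covariate entered. The standard error is the log2 fold change divided by the square root of F. Correlations used log2 cpm with a prior count of 2. Alternatives used DESeq2 1.42.0, sva 3.50.0 and limma 3.58.1 on the deposited log2 values, along with other filters, scalings, lengths and sample sets. The script was tested on simulated data.

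The members and lists were chosen with earlier results of these data known. Genes were named by rule: the subunits, Gch1, called list genes, otherwise the list gene with the smallest p, tested neighbours on either side of Exoc2, overlapping genes, the 5 genes with the highest and the 2 with the lowest r with Exoc2, and markers. Of these, 1 gene and 1 list are not reported here. No library pair of 1 genotype agreed within sampling noise, with chi-square per degree of freedom from 12.5 to 78.9.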

Additional observations from a re-analysis of the deposited data

Results flagged for a closer look

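Of 42 groups of 6 libraries that were examined, 3 held a library whose gap to the nearest other exceeded Dixon's critical value, and chance gives this in about 1 of 20 groups. Exoc5 was highest in WT replicate 6, at 34 cpm, where the WT median was 29.5 cpm. Exoc5 was also highest in cmGch1 KO replicate 1, at 36.8 cpm, where the cmGch1 KO median was 31.3 cpm. Vps33b, a gene of the HOPS and CORVET list, was highest among WT libraries in replicate 4, at 8.33 cpm. The WT mean was 6.87 ± 0.769 cpm (SD, n = 6). None of these values belongs to Exoc2 or Exoc4.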

How the results depend on the processing

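Of 877 alternative values of 42 results, 827 were classed as the same, 8 lost significance, 28 moved and 14 turned their sign. Only fold changes of genes and ratios of levels were classed by sign. Medians of lists could change sign and still be classed as the same or as moved. That of GLUT4 vesicles went from -0.02 to 0.05 with library size alone and was classed as the same. Exoc2 was called in 23 of 23 alternatives (log2 fold change -0.67 to -0.52) and Exoc4 in 22 of 23 (0.32 to 0.42). Without the 2 libraries with high Xist, 1 subunit was called, Exoc4 was at 0.35 and not called, and 18 genes were called lower and 16 higher in fewer samples. The 50 genes called lower and 76 called higher became 155 and 218 with DESeq2's Wald test, 24 and 40 with a covariate for sex-linked expression, 331 and 305 with 1 surrogate variable, and 36 and 116 with library size alone. Leaving out 1 library gave 28 to 96 lower (moved by over 1.5 times by WT replicates 3, 4 and 5 and cmGch1 KO replicate 1) and 44 to 111 higher (WT replicates 3 and 5 and cmGch1 KO replicates 2 and 3). The cause was not tested. With the replicate number as a block, 76 genes were called lower and 112 higher, Exoc2 was at -0.63 and Exoc4 at 0.35, and both were called. Same-numbered libraries correlated over 0.1 in 3 of 6 pairs, and 5 of 12 libraries correlated best with their own number, so the numbers were not taken as a pairing.

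Exoc6 turned to 0.02 with library size alone, 0.01 with sex-linked expression and 0.01 without the high-Xist libraries. Exoc8 turned to -0.004 without the filter and -0.002 on the deposited log2 values, and lay between -0.03 and 0.07 with 1 library left out. With library size alone the medians were 0.17 for the 9 subunits, 0.11 for SNAREs, 0.02 for COG, 0.12 for GARP and EARP and 0.03 for HOPS and CORVET. That of all tested genes also rose with this scaling, from -0.01 to 0.07. With sex-linked expression, and likewise without the high-Xist libraries, they were 0.13 for GARP and EARP and 0.04 for HOPS and CORVET. With the longest transcript as length, the mean log2 ratio was 0.07 for Exoc6 over Exoc7 (exact permutation, adjusted p = 0.0767), -1.18 for Exoc8 over Exoc4 and -0.76 for Exoc5 over Exoc6b. With the coding length it was -0.10, -0.80 for the first 2 of these and -1.22 for Exoc2 over Exoc5. Exoc3 over Exoc6 was 0.11 to 0.16 with 1 library left out.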
